A study of Mus musculus with 23 samples.

Results

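The genes described here encode the cytotoxic granule proteins granzyme A, B, C, D, E, F and K (Gzma, Gzmb, Gzmc, Gzmd, Gzme, Gzmf and Gzmk) and perforin (Prf1), together with Nkg7 and Ncr1, genes of natural killer (NK) cells and cytotoxic T cells. They were chosen by gene symbol and make up 10 of the 24940 symbols in the tumor table, each with 1 listed transcript. RNA was sequenced from whole tumor fragments of 5 syngeneic mouse tumor models, with 3 tumors of each and 15 in all. The cell lines were B16-F10 (B16, melanoma), EO771.LMB (EO771, breast carcinoma), LL/2 (LL2, lung carcinoma), MC38 (colon carcinoma) and Pan02 (pancreatic ductal carcinoma). All were engrafted under the skin of the flank of adult female C57BL/6 mice, and none of the tumors was treated. Each model rests on 1 cell line, the tumors grew outside the organ that the line came from, and no tumor-free tissue is among the samples, so that levels are compared between models only. As a background, 8 libraries of cancer-associated fibroblasts (CAFs) were used, sorted as FAP+ cells from the CD45- fraction of EO771, LL2, MC38 and Pan02 tumors, with 2 libraries of each model and none from B16. CT26 was not analysed here.

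Cytotoxic lymphocytes kill by releasing granules onto a target cell. Perforin forms pores, and granzymes, a family of serine proteases, enter the target and cleave its proteins. Granzyme B cleaves after aspartate and activates caspases, granzyme A is a tryptase, and granzyme K is another tryptase found mainly in T cells. Granzymes C, D, E and F are rodent relatives of granzyme B that appear in strongly activated T and NK cells and also in some cells outside the lymphoid lineages. Nkg7 is a membrane protein of the granules, and Ncr1 encodes NKp46, an activating receptor of NK cells and innate lymphoid cells.

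The members sit in few places of the genome (mm10). Gzmb, Gzmc, Gzmf, Gzmd and Gzme lie on the minus strand of chromosome 14 in 1 cluster, from the end of Gzme at position 56117619 to the start of Gzmb at position 56262334, and Gzmg, a further granzyme that is not a member, lies among them. Gzma (113093824 to 113100981) and Gzmk (113171874 to 113180897) are neighbours on the minus strand of chromosome 13. Prf1 (61297836 to 61304263) is on the plus strand of chromosome 10, and Ncr1 (4337724 to 4345164) and Nkg7 (43437138 to 43438246) are on the plus strand of chromosome 7. The 140 bases before the start of the clustered members are shown because their levels differed between the models in different ways. All of these genes but Gzmb are close copies of each other. They are RefSeq promoter sequences of GRCm38.p6, read 5′ to 3′ on the gene's strand, and capitals mark letters found by the motif search described after them.
Gzmb, chr14:56262335-56262474: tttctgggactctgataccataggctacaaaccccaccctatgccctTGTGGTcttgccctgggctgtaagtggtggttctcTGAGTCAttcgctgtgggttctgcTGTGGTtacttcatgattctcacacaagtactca
Gzmc, chr14:56234658-56234797: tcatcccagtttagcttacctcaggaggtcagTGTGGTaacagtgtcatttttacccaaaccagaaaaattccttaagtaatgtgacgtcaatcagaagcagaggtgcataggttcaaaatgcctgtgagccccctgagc
Gzmd, chr14:56132594-56132733: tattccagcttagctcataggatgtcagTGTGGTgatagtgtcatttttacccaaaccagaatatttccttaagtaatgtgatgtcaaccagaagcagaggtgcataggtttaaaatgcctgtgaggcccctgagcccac
Gzme, chr14:56120626-56120765: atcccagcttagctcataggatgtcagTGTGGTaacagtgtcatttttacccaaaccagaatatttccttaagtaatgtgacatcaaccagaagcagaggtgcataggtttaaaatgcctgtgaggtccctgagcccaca
Gzmf, chr14:56211408-56211547: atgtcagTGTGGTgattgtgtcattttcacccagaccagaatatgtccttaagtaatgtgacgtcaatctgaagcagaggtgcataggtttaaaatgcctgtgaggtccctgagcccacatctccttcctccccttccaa

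Over the 250 bases before the start, the windows of Gzmd and Gzme were 94.8% identical, and those of Gzmc and Gzmd 80.5%. The window of Gzmf was 74.5% identical to that of Gzmd, whereas that of Gzmb was 44.1% to 48.2% identical to the windows of Gzmc, Gzmd, Gzme and Gzmf. In the same 250 bases, on both strands, 5 motifs were searched. The letters TGTGGT, the core recognised by Runx factors, were found for 9 of the 10 members, all but Gzmk, against 14% of all 32851 promoters. TGAGTCA, the AP-1 site, was found for 1 member, Gzmb, against 4.46% of promoters, and GGTGTGA, a T-box site, for Gzmk and Nkg7, against 3.33%. The interferon-stimulated response element was found for 1 member, Gzma, against 2.98% of promoters. TTCNNNGAA, a STAT site, was found for 1 member, Nkg7, against 7.02%. The clustered genes share ancestry, so their matches are not separate events, and a match is a description of letters only.

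Reads of the clustered genes can be shared between copies. In GENCODE transcripts, 21.9% of all windows of 50 bases in Gzmd, 20.6% in Gzme, 7.36% in Gzmf and 4.14% in Gzmc also occurred in another gene, in each case another granzyme. No such window was found in Gzma, Gzmb, Gzmk, Prf1, Nkg7 or Ncr1. The transcripts of Gzmd and Gzme were 90.0% identical along their length, so values that separate Gzmd from Gzme are uncertain. Exons of Gzmf overlapped the gene Gm4022 over 16.4% of their bases, and reads were counted without strand.

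Tumors had between 10035173 and 21946486 counts each, the median being 16541399. Levels are given as CPM, counts relative to the size of the library after edgeR's TMM scaling. Levels of different genes are compared with each other as RPKM, which also divides by transcript length. Ratios to a leukocyte gene and sums of markers in tumors are in CPM and are compared between tumors only. At this depth 3 counts correspond to 0.137 to 0.299 CPM, a floor that covers counting error only. Ptprc, the pan-leukocyte gene CD45, was detected in every tumor, at 26.3 to 124 CPM. Melanocyte markers summed to 20198 CPM or more in each B16 tumor and to 29.1 CPM or less in each other tumor, and epithelial markers summed to 460 CPM or more in each EO771, LL2 and Pan02 tumor and to 59.8 CPM or less in each B16 and MC38 tumor. LL2 tumor 3 stood apart from the other LL2 tumors, with Ptprc at 124 CPM against 37.8 and 51.3 CPM, and Cd8a, a chain of the CD8 co-receptor, at 15.6 CPM against 1.26 and 1.49 CPM. In whole tumors, fewer cells of a type and less RNA per cell cannot be told apart.

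Of the 10 members, 9 had enough counts to be tested, and 7 of these 9 differed among the 5 models (edgeR quasi-likelihood F test, adjusted p under 0.05 over all genes). The share over all 15722 genes tested was 91.1%. Nkg7 (adjusted p = 0.14) and Ncr1 (adjusted p = 0.097) did not pass. Each model was then set against the mean of its 4 counterparts to give a direction. In MC38 tumors 8 of 9 members were higher, where 27.0% of all genes were higher, and in EO771 tumors 6 of 9 were lower, where 27.0% of all genes were lower. In LL2 and Pan02 tumors 1 of 9 was higher, where 23.3% and 32.5% of all genes were higher, and by edgeR none was lower, where 18.9% and 28.1% of all genes were lower. At an unadjusted p under 0.05, 3 members passed in LL2 and 3 in Pan02, and DESeq2 called 2 in LL2 and 3 in Pan02, where Gzma (-1.36, adjusted p = 0.034) and Gzmf (-1.32, adjusted p = 0.041) were lower. In B16 tumors 0 of 9 passed by edgeR, where 31.9% of all genes were higher and 31.6% lower. At an unadjusted p under 0.05 the count in B16 was also 0, and DESeq2 called 1. The median log2 fold change over the 9 members was 2.14 in MC38 and -1.82 in EO771, whereas the median over all genes lay between -0.04 and 0.05 in the 5 contrasts.

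**Figure D1:**
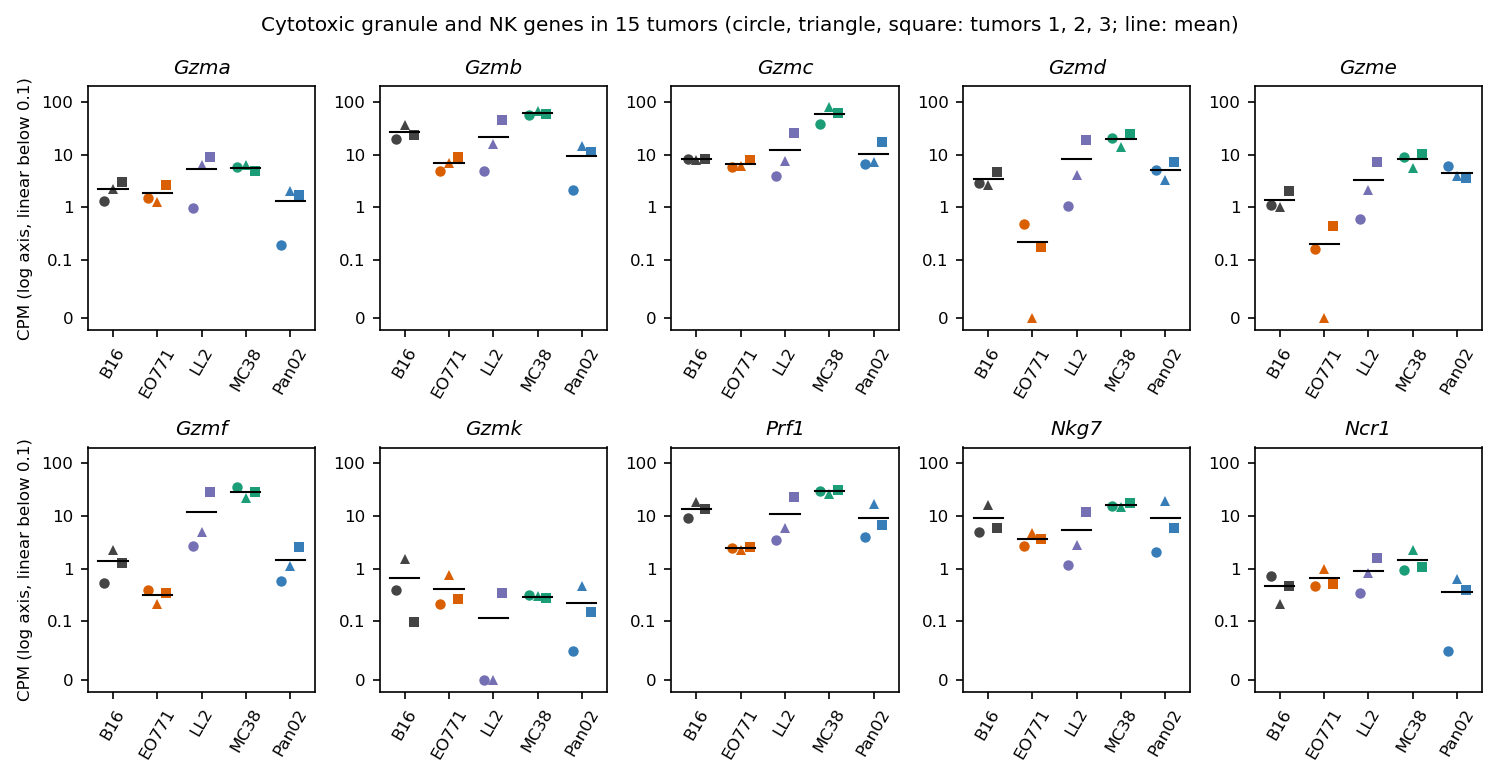
Level of each of the 10 genes in each tumor, in CPM on a logarithmic axis that is linear below 0.1, by model. Points are single tumors and black lines are means of 3 tumors. The 3 MC38 tumors sit at the top for Gzmb, Gzmc and Prf1, and the 3 EO771 tumors at the bottom for Gzmd, Gzme, Gzmf and Prf1.

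Granzyme B, the main caspase-activating granzyme, stood at 56.1, 68.5 and 58.1 CPM in MC38 tumors 1 to 3 and at 19.9, 35.9 and 23.4 CPM in B16. Levels were 4.82, 16 and 44.6 CPM in LL2, 2.10, 14.8 and 11.3 CPM in Pan02 and 4.92, 6.79 and 8.80 CPM in EO771. All 3 MC38 tumors, with a mean of 60.9 ± 6.64 CPM (SD, n = 3), lay above the other 12, while LL2 overlapped with each of the remaining models. The log2 fold change (± SE) of Gzmb against the other models was 2.14 ± 0.46 in MC38 (adjusted p = 0.0015) and -1.82 ± 0.60 in EO771 (adjusted p = 0.021). The EO771 call was lost without EO771 tumor 1 or 2, with the adjusted p reaching 0.095. In the order of means, MC38, B16, LL2, Pan02 and EO771, no pair of neighbours differed beyond the spread between tumors, since the smallest adjusted p was 0.13.

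Prf1, the pore-forming protein, had the same order of means. Its levels were 30.3, 26.6 and 31.5 CPM in MC38, 9.38, 18.2 and 13.6 CPM in B16, and 3.57, 6.02 and 23.2 CPM in LL2. In Pan02 they were 4.08, 16.7 and 6.69 CPM, and in EO771 2.43, 2.25 and 2.61 CPM. All 3 MC38 tumors were above, and all 3 EO771 tumors below, the other 12. The log2 fold change was 1.95 ± 0.41 in MC38 (adjusted p = 0.0014) and -2.53 ± 0.57 in EO771 (adjusted p = 0.0021), and both calls stayed without any 1 tumor. Among neighbours in the order, Pan02 was higher than EO771 (log2 fold change 1.89, adjusted p = 0.02), and the 3 steps above it did not pass.

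Gzmc, a relative of Gzmb, was measured at 38.5, 78.5 and 61.2 CPM in MC38 tumors, a mean of 59.4 ± 20.0 CPM (SD, n = 3). Elsewhere it lay between 3.97 and 8.25 CPM in 10 tumors and reached 17.5 CPM in Pan02 tumor 3 and 25.4 CPM in LL2 tumor 3. All 3 MC38 tumors were thus above the other 12. The log2 fold change in MC38 was 2.70 ± 0.36 (adjusted p = 4.2e-05), and MC38 was also higher than LL2, the next model by mean (log2 fold change 2.26, adjusted p = 0.0044). The contrast of EO771 was -1.26 ± 0.47 (adjusted p = 0.037), although the EO771 tumors, at 5.72, 6.15 and 8.01 CPM, overlapped LL2 and Pan02. Without any 1 of the EO771 tumors or without MC38 tumor 2 that call was lost, with an adjusted p of up to 0.13.

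Gzmd, Gzme and Gzmf, the members with the closest copies, were lower in EO771 and higher in MC38. Gzmd stood at 0.476, 0 and 0.174 CPM in EO771 tumors, that is 9 counts, 0 counts and 2 counts, and at 20.5, 13.9 and 24.5 CPM in MC38. It was at 2.85, 2.67 and 4.74 CPM in B16, at 5.03, 3.34 and 7.20 CPM in Pan02 and at 1.05, 4.07 and 19.2 CPM in LL2. All 3 EO771 tumors were below the other 12, and the 0 in EO771 tumor 2 allows up to 0.255 CPM. The log2 fold change of Gzmd was -4.84 ± 0.93 in EO771 (adjusted p = 0.00066) and 2.99 ± 0.53 in MC38 (adjusted p = 0.00036). B16, the next model above EO771, differed from it by 3.75 (adjusted p = 0.0058).

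Gzme had 3 counts, 0 counts and 5 counts in the EO771 tumors, or 0.159, 0 and 0.435 CPM. It was measured at 9.12, 5.48 and 10.4 CPM in MC38, at 6.08, 3.88 and 3.66 CPM in Pan02, at 0.611, 2.16 and 7.29 CPM in LL2 and at 1.08, 1.03 and 2.04 CPM in B16. All 3 EO771 tumors were below the other 12, and MC38 and Pan02 overlapped. Gzme was the member that Pan02 tumors had at a higher level, with a log2 fold change of 1.44 ± 0.51 (adjusted p = 0.027), and this call was lost without Pan02 tumor 1, at 1.19 and an adjusted p of 0.1. In MC38 it was 2.53 ± 0.49 (adjusted p = 0.00072) and in EO771 -4.21 ± 0.83 (adjusted p = 0.00081).

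Gzmf stood at 35.6, 22.0 and 28.2 CPM in MC38 and at 2.75, 4.90 and 28.1 CPM in LL2. Levels of Gzmf in Pan02 were 0.586, 1.15 and 2.58 CPM. In B16 they were 0.540, 2.30 and 1.30 CPM, and in EO771 0.397, 0.212 and 0.348 CPM. The EO771 tumors were the lowest of all, and LL2 tumor 3 lay among the MC38 tumors. The log2 fold change of 4.05 ± 0.49 in MC38 (adjusted p = 1.8e-05) was the largest rise of the 9 tested members, and that in EO771 was -3.84 ± 0.85 (adjusted p = 0.0019). Gzmf was also the member that LL2 tumors had at a higher level, by 2.47 ± 0.52 (adjusted p = 0.0018), but without LL2 tumor 3 the change was 0.85 and the adjusted p 0.14. With LL2 tumor 3 left out, Gzmc (-1.20) and Nkg7 (-2.02) passed in LL2 and were lower. With LL2 tumor 1 left out, 4 passed and were higher, Gzma (1.68), Gzmd (1.89), Gzme (1.36) and Gzmf (2.91).

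Gzma, the tryptase, was found at 5.73, 6.43 and 4.86 CPM in MC38, 0.985, 6.23 and 8.95 CPM in LL2 and 1.33, 2.27 and 3.02 CPM in B16. They were 1.51, 1.27 and 2.70 CPM in EO771 and 0.195, 2.06 and 1.68 CPM in Pan02. LL2 tumors 2 and 3 reached or passed the MC38 level, and the log2 fold change of 1.29 ± 0.51 in MC38 (adjusted p = 0.047) was lost in 8 of 15 fits that left out a tumor (B16 tumor 1 or 2, EO771 tumor 1 or 2, LL2 tumor 2, or MC38 tumor 1, 2 or 3), with an adjusted p of up to 0.14. Gzmk, the T cell tryptase, was near the floor, at 0 to 1.52 CPM, with at most 24.5 counts in a tumor (B16 tumor 2), and was not tested.

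Nkg7, the granule membrane protein, was found at 15.6, 15.2 and 17.3 CPM in MC38, but also at 16.3 CPM in B16 tumor 2, at 19.1 CPM in Pan02 tumor 2 and at 12.1 CPM in LL2 tumor 3. The other tumors of B16, Pan02 and LL2 had 1.19 to 6 CPM, and EO771 tumors had 2.75, 4.75 and 3.66 CPM. The contrast of MC38, 1.34 ± 0.56, did not pass (adjusted p = 0.062). It did pass by DESeq2 (1.35, adjusted p = 0.04), with total-count scaling (1.49, adjusted p = 0.037) and in edgeR without B16 tumor 2, LL2 tumor 3 or Pan02 tumor 2. Ncr1, the NK receptor, was found at 0.962, 2.28 and 1.09 CPM in MC38 and at 0.0488 to 1.60 CPM elsewhere, so that the groups overlapped. Its log2 fold change in MC38 was 1.32 ± 0.49 (adjusted p = 0.038). The call was lost in 8 of 15 fits that left out a tumor (B16 tumor 2 or 3, EO771 tumor 1 or 3, LL2 tumor 1 or 2, or MC38 tumor 2 or 3), with 0.82 (adjusted p = 0.29) without MC38 tumor 2. By DESeq2 it missed the threshold (1.32, adjusted p = 0.056).

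**Figure D2:**
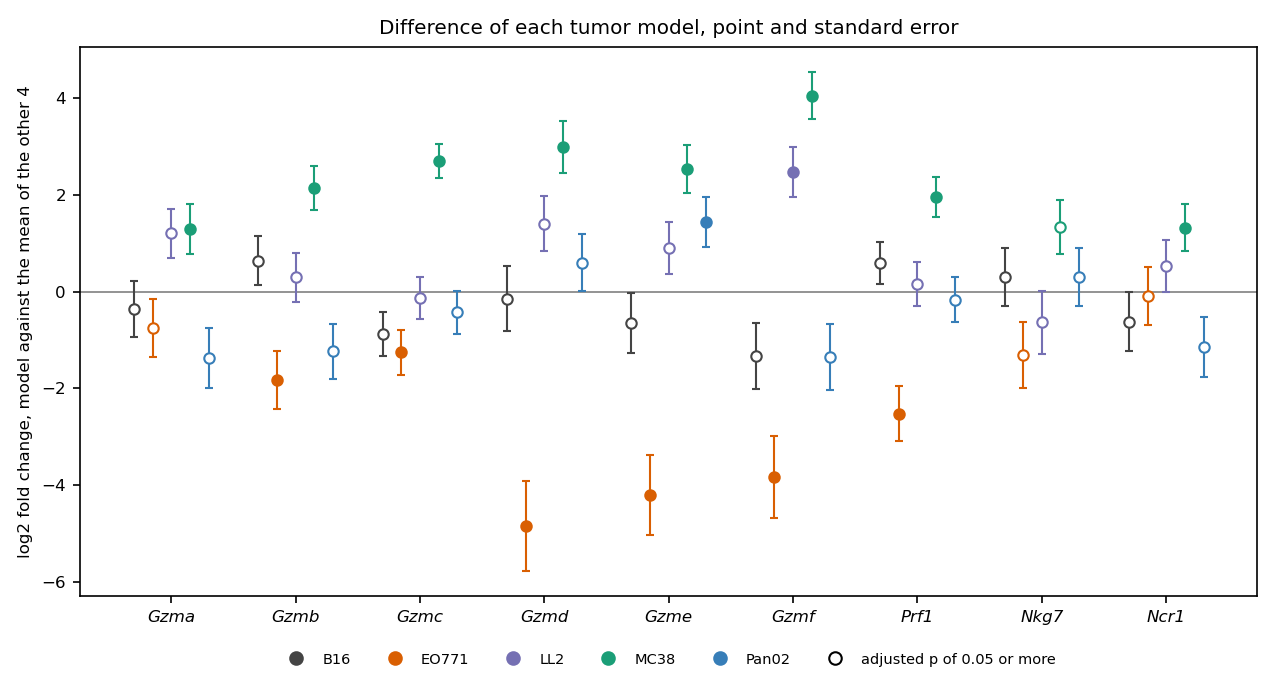
Log2 fold change of each of the 9 tested genes in each model relative to the 4 other models, drawn with its standard error. Filled points passed the test at an adjusted p under 0.05: 8 of MC38, all higher, 6 of EO771, all lower, 1 of LL2 (Gzmf) and 1 of Pan02 (Gzme), both higher.

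Between single models, 10 pairs were compared. EO771 was lower than MC38 in 7 of 9 members (25.1% of all genes), and MC38 was higher than Pan02 in 7 (27.7%). B16 was higher than EO771 in 4, namely Gzmb, Gzmd, Gzme and Prf1 (29.1%), and lower than MC38 in 4, namely Gzmc, Gzmd, Gzme and Gzmf (31.4%). EO771 was lower than LL2 in 4 (23%), namely Gzmd, Gzme, Gzmf and Prf1, and lower than Pan02 in 3, Gzmd, Gzme and Prf1 (32.4%). LL2 was higher than Pan02 in 2, Gzma and Gzmf (25.0%), and lower than MC38 in 1, Gzmc (21.5%). B16 was lower than LL2 in 1, Gzmf (29.2%), and lower than Pan02 in 1, Gzme (32.2%). Between neighbours in each member's order of means, 5 of 36 steps passed. The pairs share tumors and are not independent of each other. Without overlap, all 3 MC38 tumors were above the other 12 for 3 of 9 members (7.66% of all genes), and all 3 EO771 tumors were below for 4 of 9 (7.07%).

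Per length, the granzyme mix differed between models in amount and make-up. The summed level of the 7 granzymes was 157, 183 and 179.5 RPKM in MC38 tumors, 29.0, 43.6 and 36.7 RPKM in B16, 21.5, 29.7 and 43.1 RPKM in Pan02, and 12.6, 13.8 and 19 RPKM in EO771. In LL2 it was 13.5, 38.2 and 127 RPKM. Gzmb made up 42.3% to 54.7% of this sum in B16, more than in any other tumor, and Gzmc 45.6% to 49.1% in EO771. Gzmd, Gzme and Gzmf together held 1.70% to 8.97% of the sum in EO771, 15% to 23.9% in B16, 24.8% to 45.4% in MC38, 30.6% to 59.2% in Pan02 and 31.9% to 46.9% in LL2. The lowest share of Gzmb, 6.50%, was that of Pan02 tumor 1. These shares were not tested, and their precision is limited by the counts behind Gzmd, Gzme and Gzmf in EO771, at most 9 per gene in a tumor.

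Within the closest copies, the ratio of Gzmf to Gzme in RPKM was 0.0979, 0.300 and 0.716 in Pan02 tumors. It was 2.30 to 4.57 in LL2 and 2.74 to 4.08 in MC38, so that Pan02 tumors did not overlap with these models. In B16 tumors the ratio was 0.508, 2.28 and 0.644, so that B16 and Pan02 overlapped. In EO771 it was 2.54 in tumor 1 and 0.812 in tumor 3, and tumor 2 had 0 counts of Gzme. Perforin was below granzyme B per length in all tumors but Pan02 tumor 1. The ratio of Gzmb to Prf1 in RPKM was 0.701 there and 1.21 to 4.58 in the other tumors.

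**Figure D3:**
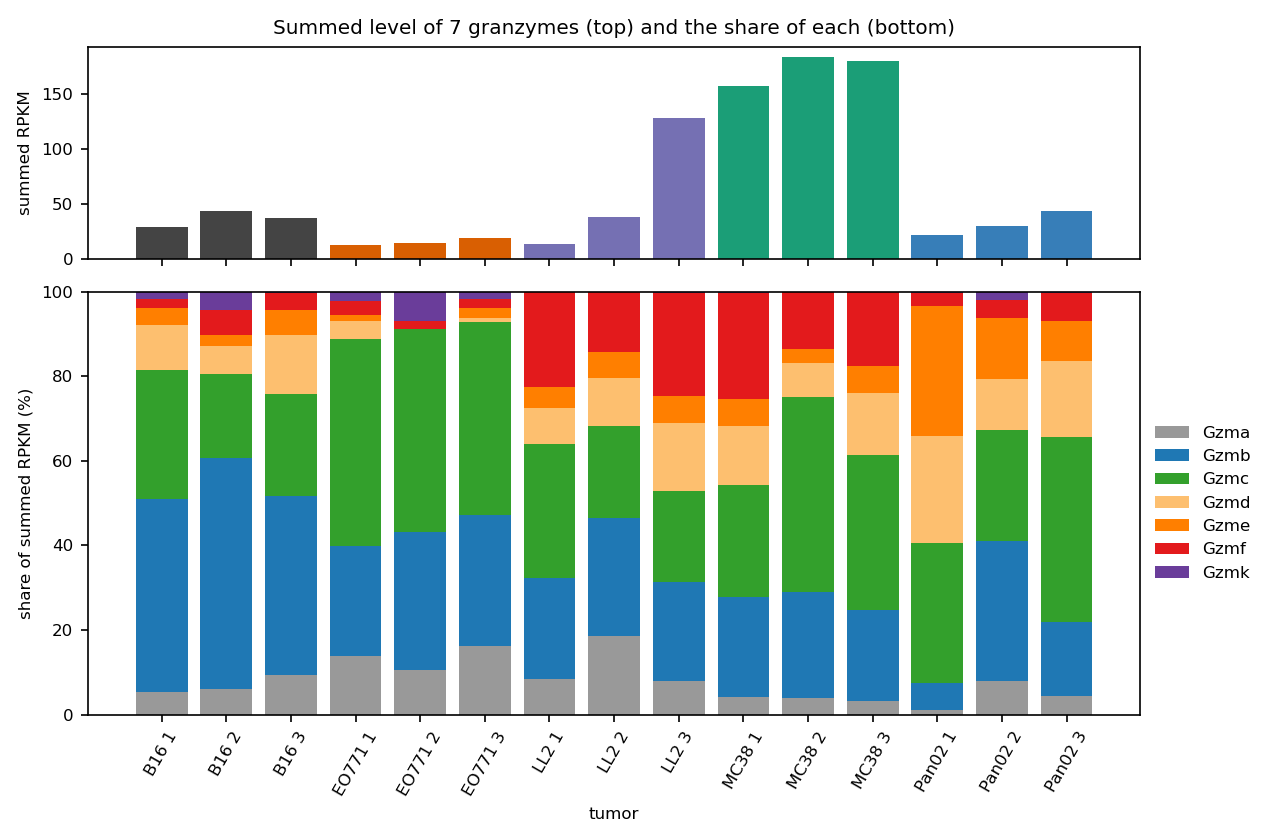
Summed RPKM of the 7 granzymes in each tumor (top) and the share of each granzyme in that sum in percent (bottom). MC38 tumors hold 157 to 183 RPKM, Gzmb is the largest part in B16, Gzmc in EO771 and MC38, and Gzme reaches 30.9% in Pan02 tumor 1.

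Levels were also set against Ptprc, as a measure of leukocytes in the tumor. The ratio of Gzmb to Ptprc in CPM was 0.756, 0.774 and 0.741 in B16 tumors and 0.560, 0.828 and 0.478 in MC38. It was 0.128, 0.312 and 0.360 in LL2, 0.0598, 0.131 and 0.125 in Pan02 and 0.0822, 0.0901 and 0.115 in EO771. B16 and MC38 overlapped and lay above the other 9 tumors. For Prf1 the ratio was 0.356, 0.393 and 0.432 in B16, above the 0.302, 0.321 and 0.259 of MC38 and above every other tumor. Ptprc itself was lower in B16, at 26.3 to 46.4 CPM (edgeR log2 fold change -1.19, adjusted p = 0.013). EO771 tumors had the lowest ratios for Prf1, 0.0299 to 0.0406, with Ptprc at 59.9, 75.3 and 76.3 CPM, which is within the range of Pan02. For Gzmf the ratio to Ptprc was 0.232 to 0.355 in MC38 and 0.0205 to 0.0496 in B16. The order depended on the reference gene. Against Cd8a, the ratio of Prf1 was 0.849 to 3.42 in B16, 1.40 to 1.68 in MC38 and 1.48 to 4.05 in LL2, and B16 overlapped with every other model. The ratios are descriptions and were not tested.

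**Figure D4:**
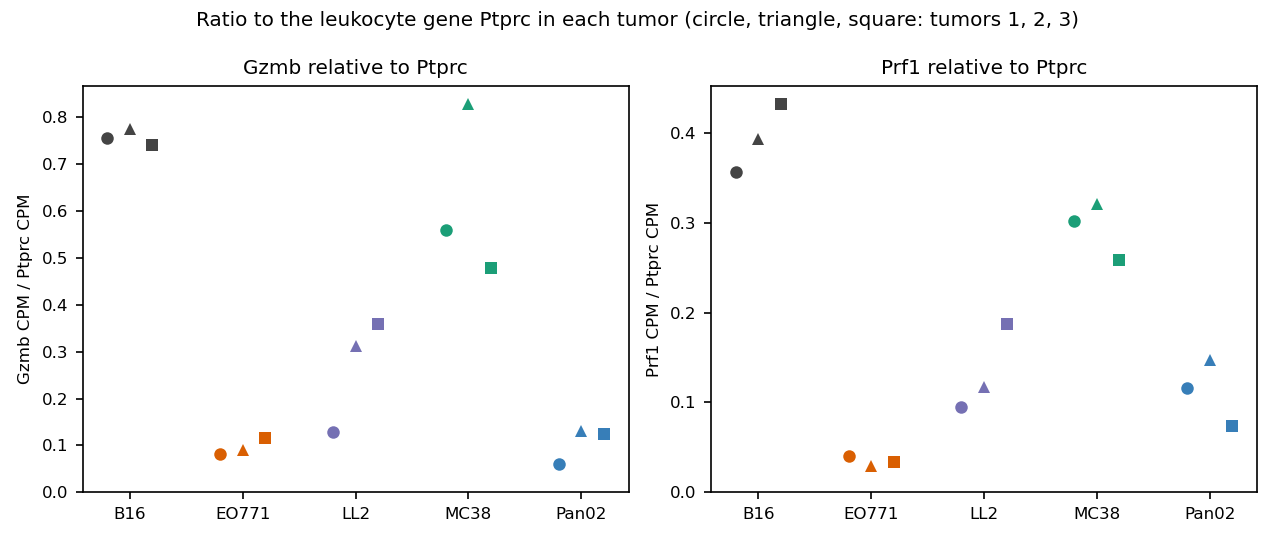
Ratio of Gzmb (left) and Prf1 (right) to Ptprc in CPM, by model, with 1 point for each tumor. The 3 B16 tumors lie at 0.741 to 0.774 for Gzmb and 0.356 to 0.432 for Prf1, and the 3 EO771 tumors at 0.0822 to 0.115 and 0.0299 to 0.0406.

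Reference genes of leukocytes were tested in the same way. Ptprc (adjusted p = 0.056), Cd3e, a chain of the T cell receptor complex (adjusted p = 0.24), Cd8a (adjusted p = 0.15), Klrb1c, the NK1.1 antigen (adjusted p = 0.14), and Klrk1, the receptor NKG2D (adjusted p = 0.11), did not pass the test over the 5 models. In MC38, Klrk1 was higher by 1.38 (adjusted p = 0.027), whereas Cd8a (1.55, adjusted p = 0.064), Klrb1c (1.22, adjusted p = 0.065), Ptprc (0.73, adjusted p = 0.074) and Cd3e (0.39, adjusted p = 0.59) did not pass. Of the 5 NK cell markers, 1 passed the test over the 5 models, Eomes (adjusted p = 1.6e-05), which is also a factor of CD8 T cells. In MC38, 4 of 5 were higher, and the sum of all 5 was 36.7 to 45.5 CPM there against 2.75 to 24.2 CPM in the other tumors. Eomes had the largest change of the 5 in MC38 (3.54). Klrb1c did not separate the models, at 1.78 to 2.11 CPM in MC38 and up to 2.63 CPM in LL2. The sum is therefore not read as a level of NK cells alone. Of the T cell markers 0 of 7 passed in MC38 by edgeR, 1 at an unadjusted p under 0.05 and 0 by DESeq2, and their sum was 50.5 to 63.8 CPM in MC38 and 27.4 to 110.7 CPM in Pan02. Mast cell markers mark cells that also hold granule proteases. They were higher in LL2 (6 of 6, 23.3% of all genes) and Pan02 (6 of 6, 32.5%) and lower in B16 (6 of 6, 31.6%). They summed to 1.42 to 10.1 CPM in B16, 16.8 to 47.0 in EO771, 31.2 to 79.3 in MC38, 53.2 to 396 in LL2 and 359.6 to 702 in Pan02. The part of these cell types in the members' levels was not tested.

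Of all genes 27.0% were higher in MC38 tumors and 24.4% lower. Among the other genes of the pathway, NK receptors were higher in MC38 in 8 of 11 tested (median log2 fold change 1.45). Examples were Klra4 (4.40), Klra7 (2.23), Klrc1, the inhibitory NKG2A chain (2.04), and Klre1 (1.68). Genes of the Klra family are close copies of each other, and their reads may be shared. Effector cytokines and chemokines were higher in 6 of 8, among them Ifng, interferon gamma (2.23), Ccl5 (1.96), Tnfsf10, the death ligand TRAIL (1.86), and Ccl4 (1.42). Cytokine receptors were higher in 4 of 8, Il18rap (2.70), Il12rb1 (2.55), Il15ra (1.94) and Il2rg (1.33). Of 3 cytokines tested, Il15, which sustains NK cells, was higher by 2.06 and Il18 was lower (-0.60). Of 7 transcription factors, Eomes, a T-box factor of NK and CD8 T cells (3.54), and Nfil3 (0.58) were higher and Id2 (-0.90) and Zeb2 (-0.64) were lower. Some of these genes were also found in sorted MC38 CAFs, where Ptprc was at 0.084 RPKM or less. Klra4 was there at 8.05 and 11.8 RPKM, Il12rb1 at 10.1 and 10.5 and Ccl5 at 20.1 and 30.4. Of the other cytokine receptors named, Il2rg was at 29.92 and 18.963 RPKM, Il15ra at 18.45 and 13.31 and Il18rap at 4.13 and 6.01. Il15 was at 4.846 and 5.672 RPKM and Eomes at 0.715 and 1.655. Klra7, Klrc1, Klre1 and Ifng were at 0 in these libraries. The part of CAFs in the tumor levels was not tested.

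Of 9 genes of granule biogenesis and release 3 passed in MC38 and were lower, where 24.4% of all genes were lower: Stxbp2, which helps granules fuse (-1.62), Rab27a, which docks them (-1.60), and Lyst, a sorting gene (-1.13). The other models include the pigmented B16, and the mean level of Rab27a was 390 CPM in B16, 14.5 in Pan02, 6.56 in LL2, 5.97 in MC38 and 2.97 in EO771. Of 4 granzyme inhibitors of the serpin family 2 were lower, Serpinb9b (-1.33) and Serpinb6b (-0.75). The mean level of Serpinb9b in MC38, 4.35 CPM, was below that of EO771 (74.0) and Pan02 (41.3) but above that of LL2 (2.98) and B16 (1.56). Likewise Serpinb6b, at 8.14 CPM in MC38, was below EO771 and Pan02 and above B16 (7.13) and LL2 (6.18). Of 6 substrates of granzymes in the dying cell 4 were higher, where 27.0% of all genes were higher. Among them were Parp1 (1.20), Dffa (0.66) and Bid (0.56), and Gsdme was lower (-0.66). Such genes are expressed by many cells of a tumor.

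In EO771 tumors, where 6 members were lower, Eomes (-3.16) and Tbx21, the other T-box factor (-1.55), were lower, and Prdm1 (1.08) and Nfil3 (0.50) were higher. Effector genes were lower in 3 of 8, where 27.0% of all genes were lower, namely Ccl3 (-2.35), Ifng (-2.27) and Ccl4 (-1.15). Of 8 cytokine receptors 2 were lower, Il18rap (-3.14) and Il12rb1 (-1.48), and so were the cytokines Il15 (-1.11) and Il18 (-1.09). Of the NK receptors 2 of 11 passed by edgeR, Cd244 higher (1.07) and Klra4 lower (-1.0), against 6 at an unadjusted p under 0.05 and 5 by DESeq2, and the median log2 fold change was -1.32. Ligands of NK receptors were higher in 5 of 9, where 27.2% of all genes were higher, led by Raet1d (2.15), Ulbp1 (2.07) and Pvr (1.67), and lower in 2, H2-T23 (-1.22) and Clec2d (-0.96). Among the inhibitors, Serpinb9b was higher by 3.76 while Serpina3n (-1.94) and Serpinb9 (-0.60) were lower.

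Granzyme inhibitors were higher in Pan02 in 4 of 4, namely Serpinb9b (2.71), Serpina3n (2.69), Serpinb6b (2.58) and Serpinb9, which blocks granzyme B (1.38). Of all genes 32.5% were higher in Pan02, and of 9 granule genes 3 were. These were Srgn, the proteoglycan that packs granzymes (2.17), Unc13d (1.70) and Stxbp2 (1.22). Il12b (1.68), Il18 (1.35) and Runx3, a factor of CD8 T cells (1.70), were higher too. In Pan02 CAFs, with Ptprc at 0.092 RPKM or less, Runx3 was at 11.9 and 10.4 RPKM and Unc13d at 13.7 and 11.5. Stxbp2 was there at 20.8 and 23.6, Serpinb6b at 27.0 and 37.2 and Serpinb9 at 20.9 and 25.4. Srgn was at 1.78 and 1.33 and Il12b at 0.056 or less. The Pan02 CAF libraries also held epithelial RNA, with Krt8 at 385 and 545 RPKM and Krt18 at 349 and 483. The part of CAFs in the tumor levels was not tested. Of the NK receptors 0 of 11 passed in Pan02 by edgeR, 1 at an unadjusted p under 0.05 and 1 by DESeq2. In B16, 3 of 4 inhibitors were lower (31.6% of all genes), led by Serpinb9b (-3.11). Rab27a was higher in B16 by 5.93, Lyst by 2.21 and Stxbp2 by 1.75. Rab27a and Lyst also act in pigment cells, and all 4 melanocyte markers were higher in B16. In LL2, Gzmg was higher by 3.71 and Il18rap by 4.0, and all 4 neutrophil markers passed as higher (23.3% of all genes). Il18rap was at 18.8 and 21.2 RPKM in LL2 CAFs, where Ptprc was at 0.021 RPKM or less and epithelial markers summed to 184 and 194 RPKM. Of the other granzymes, Gzmg was the only one tested. Gzmg had 0 counts in all 3 EO771 tumors and was at least 296-fold higher in MC38, 186-fold in LL2, 46.7-fold in B16 and 30.9-fold in Pan02, against a floor of 3 counts over the EO771 group. Without LL2 tumor 3 the bound for LL2 was 60.4-fold, and without Pan02 tumor 3 that for Pan02 was 12.3-fold, an alternative chosen after seeing the data.

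Over the 15 tumors, the 36 pairs of tested members had Pearson correlations of log2(CPM + 1) from 0.361 (Gzme with Ncr1) to 0.948 (Gzmd with Gzme), with a median of 0.742. Gzmb and Prf1 had 0.910. The points share model, leukocyte content and library, and the close copies Gzmd, Gzme, Gzmf and Gzmg can share reads as well, since 19.8% of the windows of 50 bases in Gzmg occur in another granzyme. The genes most like each member, among non-members with a mean of at least 1 CPM, differed by member. For Gzmb they were Ifi35 (0.945), Trim30a (0.942) and Rtp4 (0.935), and for Prf1 Rtp4 (0.953), Parp14 (0.947) and Psme1 (0.942), genes known to respond to interferon. For Gzmc they were Tor3a (0.950), Oasl1 (0.944) and Trafd1 (0.935), and for Ncr1 Ifi209 (0.879), Ifi208 (0.866) and Ifit1bl1 (0.865). Rank (Spearman) correlations of Gzmc were lower, at 0.811 with Tor3a, 0.661 with Oasl1 and 0.821 with Trafd1. Oasl1 was at 120 to 252 CPM in MC38 and at 8.25 to 41.8 CPM in the other tumors. Nkg7 was most like Cd8a (0.972), Il2rb (0.963) and Cd96 (0.958), which are lymphocyte genes. Gzma was most like Slfn1 (0.897), Klrb1c (0.893) and Ifi208 (0.886). Gzmd was most like Gzmg (0.922), Dgat2 (0.911) and Rab11fip1 (0.896), and Gzmf like Gzmg (0.950) and Twf2 (0.921). Gzme was most like Myh4 (0.939), Cmya5 (0.917) and Atp2a1 (0.913), genes of skeletal muscle. Myh4 ran from 61.2 to 565 CPM in MC38, 5.76 to 123 in Pan02 and 0.509 to 135 in LL2 and stayed at 0.785 CPM or less in B16 and EO771. The part of muscle in the level of Gzme was not tested.

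In sorted CAFs, Gzmk was listed at 0 in all 8 libraries, and Ncr1, Gzma, Prf1 and Nkg7 reached at most 0.103, 0.276, 0.318 and 0.371 RPKM. Gzmb was at 0.978 and 0.879 RPKM in EO771 CAFs, 0.534 and 0.167 in Pan02, and 0.036 or less in LL2 and MC38. Gzmc was at 5.36 and 5.62 RPKM in EO771 CAFs, against 1.88 and 1.28 in MC38, 1.37 and 0.813 in Pan02 and 0.357 and 0.165 in LL2, so that the EO771 libraries did not overlap with the others. Gzmd and Gzme had their highest values in a Pan02 library, 2.59 and 1.92 RPKM.

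Only Gzmc and Gzme had enough signal to be tested, and 1 of 2 differed among the 4 CAF models (limma on log2(RPKM + 1), 80.4% of all genes). Gzmc was higher in EO771 CAFs by 1.79 ± 0.16 on that scale (adjusted p = 0.00015, 24.5% of all genes) and lower in LL2 CAFs (-1.37 ± 0.16, adjusted p = 0.00075, 18.3% of all genes), whereas Gzme did not pass (adjusted p = 0.077). In EO771 the whole tumors had the lowest mean CPM of Gzmc of the 5 models, while the EO771 CAFs had the highest RPKM of the 4 CAF models. The tables were normalized separately and were not tested against each other. EO771 CAFs also held leukocyte RNA: Ptprc was at 0.947 and 0.902 RPKM against 0.092 or less in the others, and the macrophage markers summed to 51.9 and 66.3 RPKM against 6.99 or less. The lymphocyte genes Cd8a, Klrb1c and Klrk1 were at 0.083 RPKM or less in all 8. Il2rb, another lymphocyte gene, was at 1.19 and 1.58 RPKM in EO771 CAFs and at 0.342 or less in the other models. Xcl1 was at 0.847 and 1.75 RPKM in EO771 CAFs and at 0.241 or less in the other models. Fibroblast markers summed to 486 RPKM or more in each CAF library, and epithelial markers to 184 to 1040 RPKM in EO771, LL2 and Pan02 CAFs and 1.57 or less in MC38. The part of these cells in the granzyme values was not tested.

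**Figure D5:**
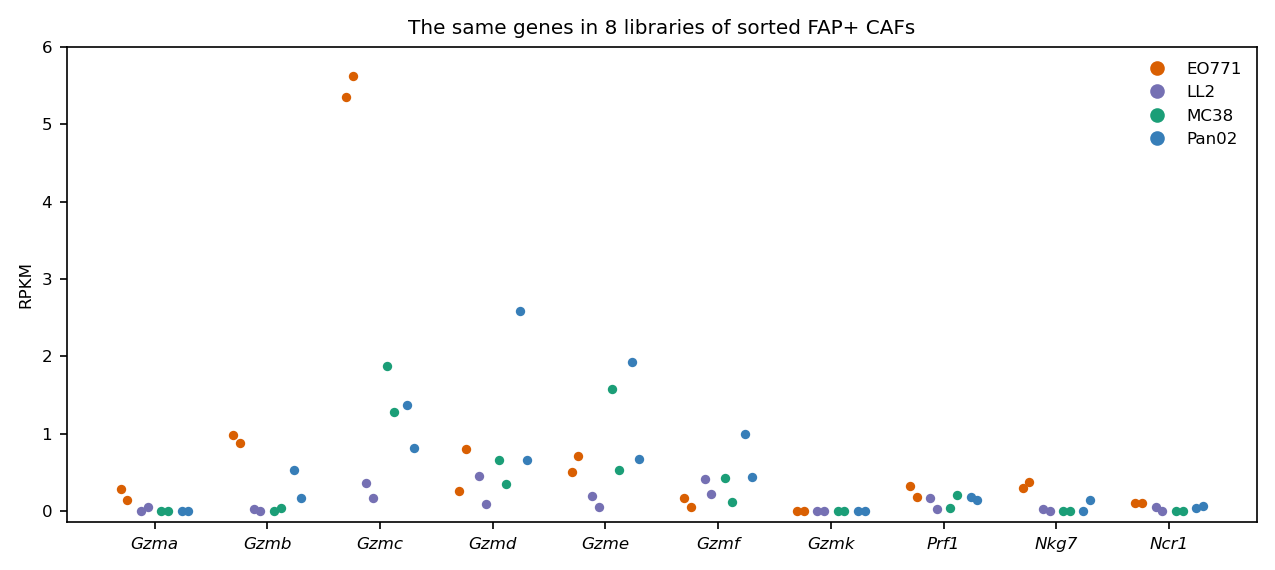
RPKM of the 10 genes in each of the 8 libraries of sorted FAP+ CAFs, with 2 points for each model. Gzmc in the EO771 libraries, at 5.36 and 5.62 RPKM, is above every other value, and Gzmk is at 0 throughout.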

How the data were processed

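Members and gene lists were chosen with earlier results of these data known. The authors aligned reads to mm10 with STAR 2.5.0c and counted with HOMER, without strand, and deposited expected counts (not normalized, 0.5 apart, 1 value for each RefSeq transcript) for tumors. For CAFs the authors deposited RPKM. Each symbol was represented by its transcript of largest mean. Left out were 2 entries that name no gene (2.08e-05% of counts) and 5 deposited columns of samples not analysed here.

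Counts were rounded up, filtered by filterByExpr, TMM scaled and fitted by edgeR 4.0.16 (R 4.3.3) in 1 quasi-likelihood model of all 15 tumors and 15722 genes, with Benjamini-Hochberg adjustment. CAF values were tested by limma 3.58.1 as log2(RPKM + 1) over 13598 genes that reached 1 RPKM in 2 or more libraries. Alternatives were DESeq2 1.42.0, total-count scaling, no filter, the transcript of largest count per length, rounding down, a replicate block, a pseudocount of 0.1 and leaving out each library. In simulated counts for the contrast of MC38 tumors, edgeR called all 200 changed genes and 10 unchanged ones among 15722. Whether edgeR would find changes in genes with the counts and spread of the members was not tested.

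Named genes are the 10 members, the 3 genes most like each tested member, Ptprc, Cd3e, Cd8a, Klrb1c and Klrk1, and at most 4 genes of each list by size of change among those past the test. Some genes that this rule names are not reported here. Nothing in the labels says that the tumors of a model came from separate mice, so p-values measure the spread between these samples.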

Additional observations from a re-analysis of the deposited data

How the results depend on the processing

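Of 945 log2 fold changes of the 9 members under the 21 alternatives, 872 kept direction and side of the threshold, 25 lost and 26 gained a call, and 22 changed sign. None of the 16 called changes reversed, and 6 lost the call under at least 1 alternative (Gzma and Ncr1 in MC38, Gzmb and Gzmc in EO771, Gzme in Pan02, Gzmf in LL2). By DESeq2, 1 member passed in B16 (Gzmf, -1.36), 2 in LL2 (Gzmd and Gzmf) and 3 in Pan02, where Gzma (-1.36) and Gzmf (-1.32) were lower. In CAFs, 2 members passed with a pseudocount of 0.1 and 5 of 9 without a filter. Leaving out 1 tumor, the counts ran from 0 to 2 in B16, 4 to 6 in EO771, 1 to 4 in LL2, 6 to 9 in MC38 and 0 to 4 in Pan02, and from 1 to 2 in CAFs. The count in B16 was 1 without B16 tumor 3 and 2 without LL2 tumor 1 or 3. In LL2 it was 2 without EO771 tumor 1 and 3 without LL2 tumor 3. The counts in B16 without B16 tumor 3 or LL2 tumor 3 and in LL2 without LL2 tumor 3 include Gzmk, which is near the floor, so no change of Gzmk is read from them. In Pan02 it was 4 without LL2 tumor 1, 2 without LL2 tumor 3 or Pan02 tumor 3 and 0 without Pan02 tumor 1. In CAFs it was 2 without the second MC38 or the second Pan02 library. The cause was not tested.

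Signs of changes that had not passed turned when 1 tumor was left out. In LL2, with values mostly set by LL2 tumors 1 and 3, the log2 fold change ran from -0.77 to 0.74 for Gzmb, -1.20 to 0.27 for Gzmc, -0.23 to 1.89 for Gzmd, -0.34 to 1.36 for Gzme, -1.01 to 0.56 for Prf1 and -0.10 to 0.90 for Ncr1. In Pan02 it ran from -0.92 to 0.20 for Prf1 and -0.86 to 0.79 for Nkg7, in B16 from -0.47 to 0.26 for Gzmd and -0.43 to 0.66 for Nkg7, and in EO771 from -0.49 to 0.13 for Ncr1. Total-count scaling moved the median of all genes by 0.14 in MC38 and -0.11 in Pan02.

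No clear pairing of the tumors by replicate number was seen. Of 30 same-numbered pairs 5 had correlated deviations over 0.1 (-0.172 to 0.235), and 6 of 15 tumors were closest to their own number. Pairs with different numbers ran from -0.307 to 0.248. The check is a description and cannot tell whether same-numbered tumors shared a day or batch. With the replicate block, 3 members passed in Pan02 (Gzma -1.53, Gzmb -1.41 and Gzme), 9 in MC38, with Nkg7 (1.60, adjusted p = 0.019) among them, and Prf1 in LL2 was -0.00055. For CAFs, no paired analysis was possible because the columns carry no replicate number.

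Members with few counts (Gzmk in all tumors, Gzmd, Gzme and Gzmf in EO771) are limited by depth.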
